A study of Homo sapiens with 8 samples.

Results

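The genes described are 7 chains of the MHC class II antigen-presenting molecules (HLA-DRA, HLA-DRB1, HLA-DPA1, HLA-DPB1, HLA-DQA1, HLA-DMA and HLA-DMB), the invariant chain CD74, and the transcriptional regulators CIITA and RFX5. They were chosen by gene name with earlier results of these data known, and all 10 were found among the 33045 gene names of the count table. RNA had been sequenced from KASUMI-1 and THP-1, established acute myeloid leukemia lines labelled sensitive and resistant to inhibition of the histone demethylase LSD1. Each line had received vehicle or the LSD1 inhibitor DDP38003 (LSD1i) at 0.5 µM, for 6 and 72 h in KASUMI-1 and for 24 and 72 h in THP-1. KASUMI-1 carries a RUNX1::RUNX1T1 fusion and THP-1 is a monocytic line with a KMT2A fusion, and each stands for 1 line only. Each of the 8 groups was 1 library, so there were 4 pairs of LSD1i and vehicle libraries, 2 in each line. The labels do not say whether the libraries of a line came from separate cultures, so the p-values measure the spread between these libraries, which may be technical.

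MHC class II molecules are pairs of an alpha and a beta chain that show peptides from the endosome to CD4+ T cells, and they are typical of B cells, dendritic cells and activated monocytes. HLA-DR, HLA-DP and HLA-DQ reach the surface. CD74 blocks the groove and is then degraded, and HLA-DM, made of HLA-DMA and HLA-DMB, helps to replace its remaining fragment with the peptide. The genes are known to be transcribed through shared promoter boxes: the X box, bound by the RFX complex of RFX5, RFXAP and RFXANK, and the Y box, bound by NF-Y. CIITA is the coactivator that this assembly recruits, and interferon gamma is its best known inducer.

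The promoters of several class II genes held letters matching the cores of both boxes, in an order and at a spacing set by the search. These sequences are shown because the X and Y boxes are known to be shared by class II genes, outside the expression values. The search used the letters AGNNAC for the X core and ATTGG for the Y core, on both strands of 300 bases from 250 before to 50 after the RefSeq start site (GRCh38.p14). A pair was an X core followed by a Y core 24 to 32 bases further on the same strand. Capitals mark the X core and then the Y core, and each line is read 5′ to 3′ in the direction of the gene.
HLA-DRB1: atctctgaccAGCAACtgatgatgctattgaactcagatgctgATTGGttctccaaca
HLA-DRB5: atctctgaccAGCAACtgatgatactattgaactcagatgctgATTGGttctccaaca
HLA-DQA1: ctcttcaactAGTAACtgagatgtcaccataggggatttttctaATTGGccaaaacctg
HLA-DQB1: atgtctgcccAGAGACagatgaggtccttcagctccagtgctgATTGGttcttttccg
HLA-DMA: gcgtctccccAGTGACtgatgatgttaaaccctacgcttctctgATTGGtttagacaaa
HLA-DOA: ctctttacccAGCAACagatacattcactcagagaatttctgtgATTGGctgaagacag

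These windows lie at chr6:32589880-32589937 (- strand), chr6:32530363-32530420 (- strand), chr6:32637294-32637352 (+ strand), chr6:32666731-32666788 (- strand), chr6:32953162-32953220 (- strand) and chr6:33009644-33009702 (- strand). HLA-DRB5, HLA-DQB1 and HLA-DOA are other class II chains outside the 10 genes. The X core began 79 bases before the start of HLA-DRB1, 102 before that of HLA-DQA1 and 113 before that of HLA-DMA. The gap between the cores was 27 bases in HLA-DRB1, HLA-DRB5 and HLA-DQB1 and 28 in HLA-DQA1, HLA-DMA and HLA-DOA. Of the 10 genes 8 had a RefSeq promoter in the table used, and HLA-DRA and CIITA were not analysed here. A pair on the gene's own strand was found in 3 of those 8, and in HLA-DPB1 a pair lay on the other strand. Of 8 other class II genes 6 had a promoter in the table, and 3 of these held the pair on the gene's strand, while HLA-DOB, HLA-DQA2 and HLA-DQB2 held none on either strand. Among all 35116 promoters of this length, 86.5% held the X core on either strand, 34.6% the Y core and 1.47% the pair, and 0.743% held the pair on the gene's strand. No pair was found in HLA-DMB, HLA-DPA1, CD74 or RFX5, which says only that these letters at this spacing are not in the windows.

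**Figure D1:**
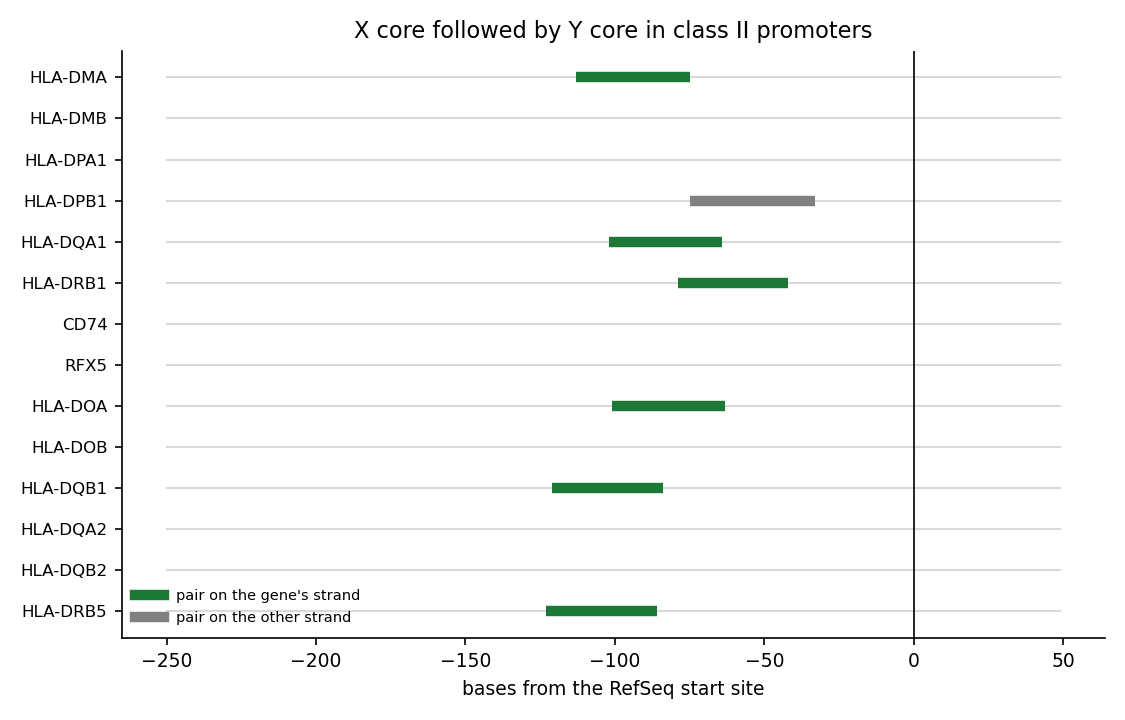
Position of each X core followed by a Y core (horizontal axis, bases from the RefSeq start site) in the promoters of class II genes and regulators with a RefSeq entry. Green bars are pairs on the gene's strand and grey bars pairs on the other strand. The pair is seen on the gene's strand in HLA-DMA, HLA-DQA1 and HLA-DRB1 among the 8, and in HLA-DOA, HLA-DQB1 and HLA-DRB5 among the 6 others.

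HLA-DMB, whose fitted change with LSD1i was the highest of the 10 in THP-1, has its promoter at chr6:32940979-32941278 (- strand). It is shown whole, with the X cores of the gene's strand and CCAAT, the reverse complement of the Y core, in capitals.
HLA-DMB: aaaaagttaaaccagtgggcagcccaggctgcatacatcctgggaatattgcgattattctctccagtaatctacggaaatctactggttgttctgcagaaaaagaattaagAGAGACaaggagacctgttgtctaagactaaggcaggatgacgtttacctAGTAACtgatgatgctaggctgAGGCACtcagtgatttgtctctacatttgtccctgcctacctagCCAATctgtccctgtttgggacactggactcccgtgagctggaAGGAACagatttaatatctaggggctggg

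On the gene's strand this promoter held 4 X cores and 0 Y cores. Its 1 CCAAT, the Y core read on the other strand, lay 22 bases before the start site, and the nearest X core upstream of it on the gene's strand began 66 bases before the start, with 38 bases between them. On the other strand 4 further X cores, not in capitals, lay at positions -15 to -10, -38 to -33, -50 to -45 and -87 to -82 from the start.

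In the count table, made with gene models on NCBI36, the 10 genes lay on 4 chromosomes. HLA-DRA (chr6:32515625-32520801, + strand), HLA-DRB1 (chr6:32654513-32665591, - strand), HLA-DQA1 (chr6:32713112-32719407, + strand), HLA-DMB (chr6:33010384-33016795, - strand), HLA-DMA (chr6:33024368-33028863, - strand), HLA-DPA1 (chr6:33140324-33156465, - strand) and HLA-DPB1 (chr6:33151727-33167867, + strand) are in the MHC. CD74 was at chr5:149761399-149772525 (- strand), CIITA at chr16:10867648-10926341 (+ strand) and RFX5 at chr1:149579740-149586426 (- strand). Rows counted all exons of a name. The 7 HLA genes also had exons on alternative chromosome 6 haplotypes, and CD74, CIITA and RFX5 had none. Of all rows 264 had such an exon, and the 47 that lay on haplotypes alone had 0 reads in all 8 libraries. Which sequences the aligner searched beside the chromosomes is not given in the sources used here. Exons of HLA-DPA1 and HLA-DPB1 overlap by 31 bases on opposite strands, and strand was not used in counting.

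Counted reads ranged from 23722972 to 45970766 per library, the lowest in KASUMI-1 vehicle at 72 h. Levels are TMM-scaled CPM, reads relative to the scaled library total, and levels between genes are given per kilobase of exon on the reference chromosome (RPKM). Monocyte and macrophage marker genes, 8 in all, summed to 57.6 to 61.6 CPM in KASUMI-1 vehicle and 176 to 447 CPM with LSD1i, and to 653 to 1008 CPM in THP-1 vehicle and 5068 to 11290 CPM with LSD1i. Over the 8 libraries LYZ had the highest average log2 CPM of those tested (11.1, the next FCGR1A at 5.62) and weighs most in such sums. In edgeR's quasi-likelihood fit 4 of 6 tested rose in THP-1 (LYZ, CD14, CSF1R and ITGAM), where 6.51% of all genes rose. In KASUMI-1 3 rose (LYZ, CSF1R and ITGAM), where 7.02% did. FCGR1A did not pass in either line, nor CD14 in KASUMI-1 (log2 -1.61). MRC1, a macrophage marker, was at 0 in every library, and CD68 and FCGR3A were under 1 CPM. Of 8 dendritic cell markers the sums were 13.2 to 16.2 CPM in THP-1 vehicle and 20.5 to 21.0 with LSD1i, and those of KASUMI-1 were 1.96 to 3.23 and 3.41 to 3.46. Of these 8 genes 5 were tested and 2 rose in THP-1. CD1C rose by a log2 value of 5.39 ± 0.44 and CLEC10A by 3.33 ± 0.53, with adjusted p of 2.66e-07 and 0.000387 in edgeR's quasi-likelihood fit (± SE). ZBTB46 (-0.24 ± 0.25, adjusted p = 0.680), BATF3 (-0.24 ± 0.19, 0.555) and CCR7 (2.56 ± 0.88, 0.0840) did not pass, and CLEC9A, CD207 and FCER1A were under 1 CPM in every library. The 5 B cell markers summed to 56.2 to 77.6 CPM in KASUMI-1 vehicle and 36.7 to 49.6 with LSD1i, and to 4.04 to 5.46 and 4.63 to 5.40 in THP-1, with MS4A1 under 1 CPM throughout. The summed T cell markers were at most 2.44 CPM and the fibroblast markers at most 0.223, with COL1A2 at 0. The part of these genes in the class II results was not tested. In bulk libraries fewer cells of a type and less RNA per cell cannot be told apart.

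Counted levels differed between the vehicle libraries of the lines, and in opposite ways for the 2 chains of HLA-DR. The first vehicle times of the lines also differ (6 and 24 h). How closely the HLA alleles of each line match the reference, which affects how many reads are counted, was not tested. HLA-DRA, the alpha chain of HLA-DR, stood at 173 and 148 CPM in the KASUMI-1 vehicle libraries at 6 and 72 h, and at 5.28 and 3.42 CPM in THP-1 vehicle at 24 and 72 h. HLA-DRB1, its main beta chain, stood at 20.1 and 28.0 CPM in KASUMI-1 and 54.7 and 58.3 CPM in THP-1. HLA-DRA differed in THP-1 by a log2 value of -5.19 ± 0.25, and HLA-DRB1 by 1.24 ± 0.20 (adjusted p = 7.38e-08 and 0.000360, edgeR's quasi-likelihood test, ± SE). The vehicle libraries of the lines did not overlap for either chain, but the share of all genes without overlap was not counted. Of 9 genes tested 6 were lower in THP-1 and 1 higher, against 26.4% lower and 30.1% higher among the 15456 genes tested (56.5% either way). The median of the 9 was -2.06, beside 0.00206 over all genes tested.

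HLA-DPA1 and HLA-DPB1, the chains of HLA-DP, were both lower in THP-1 vehicle. HLA-DPA1 was 16.8 and 19.5 CPM in KASUMI-1 vehicle against 1.05 and 0.879 CPM in THP-1, and HLA-DPB1 19.6 and 22.7 CPM against 0.652 and 0.190 CPM. The log2 differences were -4.22 ± 0.26 and -5.60 ± 0.41 (adjusted p = 3.51e-07 and 1.20e-06). CIITA, at 9.50 and 10.1 CPM in KASUMI-1 and 0.336 and 0.831 CPM in THP-1, differed by -4.07 ± 0.37 (6.17e-06). CD74, at 270 and 269 CPM against 58.4 and 70.0 CPM, differed by -2.06 ± 0.17 (2.98e-06), and HLA-DMA, at 8.71 and 7.79 CPM against 3.66 and 3.59 CPM, by -1.18 ± 0.23 (0.00134). RFX5, at 82.7 and 112 CPM against 126 and 144 CPM, was 0.48 ± 0.19 higher in THP-1, with an adjusted p of 0.0516, and HLA-DMB was 0.367 and 0.534 CPM against 0.504 and 0.143 CPM (-0.40 ± 0.58, adjusted p = 0.589). HLA-DQA1, at 2 to 9 reads in the 4 vehicle libraries, was too low to be tested.

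**Figure D2:**
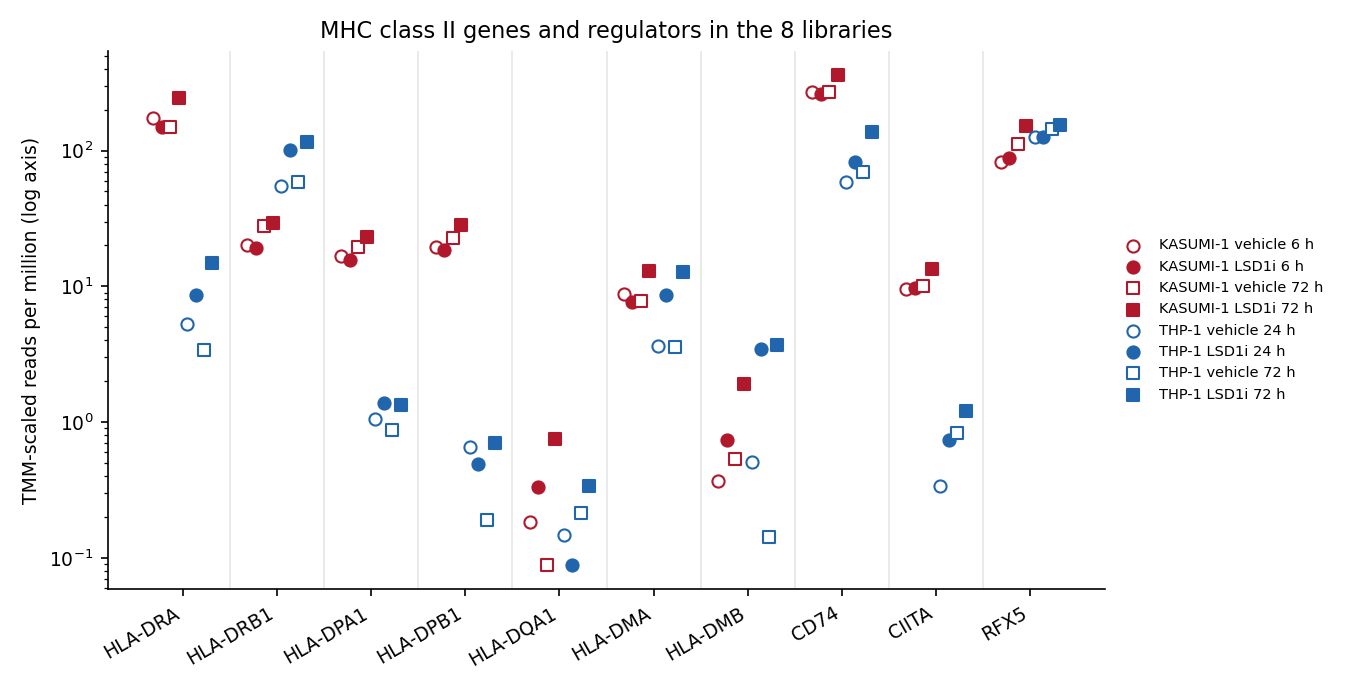
Level of the 10 genes in the 8 libraries (vertical axis, TMM-scaled CPM on a log axis), 1 point per library. Open points are vehicle, filled points LSD1i, circles the first and squares the 72 h time; the line is given by colour. HLA-DRA and the HLA-DP chains are higher in all 4 KASUMI-1 libraries than in all 4 THP-1 libraries, and HLA-DRB1 is the reverse. The share of all genes parted in this way was not counted.

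Compared per length, CD74 and HLA-DRA held the top 2 ranks of the 10 in every KASUMI-1 library, at 173 to 237 and 118 to 193 RPKM. In THP-1 HLA-DRB1 ranked first (44.5 to 93.8 RPKM), CD74 second (38.5 to 90.5) and then RFX5 (34.4 to 42.5). This order depends on the lengths: with the deposited lengths, which add haplotype exons for the HLA genes, CD74 ranked first, then RFX5 and then HLA-DRB1 (9.87 to 20.8 RPKM) in all 4 THP-1 libraries. On the reference exons, HLA-DRB1 and CD74 in THP-1 vehicle at 72 h, at 47.4 and 46.1 RPKM, lay closer together than CD74 moved between the vehicle times (38.5 and 46.1). The ratio of HLA-DRA to HLA-DRB1 per length was 5.18 to 8.42 in KASUMI-1 and 0.0576 to 0.126 in THP-1. The HLA-DP chains were near equal in KASUMI-1, at 0.912 to 0.964 alpha to beta, and 1.81 to 5.18 in THP-1, where the beta chain had 8 to 31 reads per library. HLA-DMA exceeded HLA-DMB by 2.93 to 29.7 times over all 8 libraries. HLA-DRB1 shares sequence with HLA-DRB5, and reads of close copies can be assigned to either or left out, so both levels are uncertain. HLA-DRB5 had 24.4 to 26.3 reads per 100 of HLA-DRB1 in KASUMI-1 and 25.2, 29.6, 23.5 and 35.7 in THP-1 vehicle and LSD1i at 24 h and vehicle and LSD1i at 72 h.

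**Figure D3:**
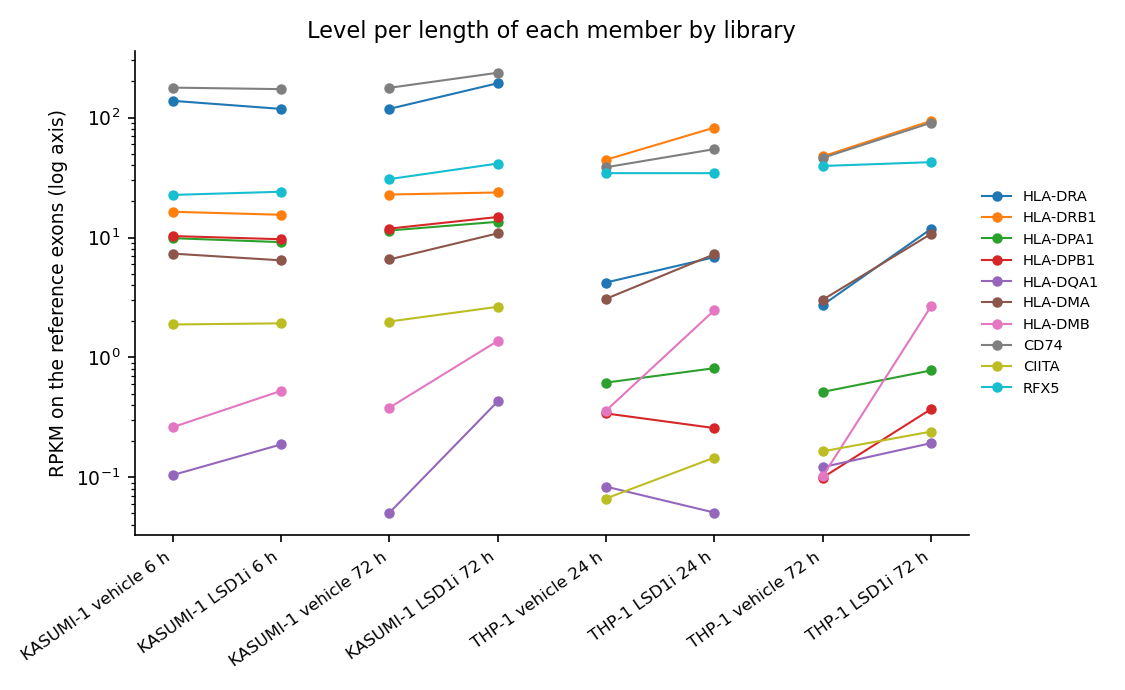
RPKM of each gene on the reference exons (vertical axis, log) in each library, with a line joining the vehicle and LSD1i library of a pair. CD74 and HLA-DRA lead in KASUMI-1, and HLA-DRB1, CD74 and RFX5 lead in THP-1 in this order on these lengths.

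In THP-1 under LSD1i 5 of the 10 genes rose, where 6.51% of all genes tested rose and 2.85% fell (9.36% either way). None of the 10 fell in edgeR's test, by DESeq2 or at an unadjusted p under 0.05 (0 in each). HLA-DMB, a chain of the peptide editor HLA-DM, had the largest fitted change of the 10. It was 0.504 CPM in vehicle and 3.46 CPM in LSD1i at 24 h, and 0.143 and 3.73 CPM at 72 h, a log2 rise of 3.46 ± 0.37 with an adjusted p of 4.53e-06 in edgeR's quasi-likelihood fit (2 residual degrees of freedom). Both LSD1i libraries lay above both vehicle libraries, but the share of all genes for which this held was not counted. These levels rest on 24 and 155 reads at 24 h and 6 and 132 reads at 72 h, a ratio of 6.87 (95% counting interval 4.45 to 11.04) and 26.2 (11.7 to 72.6). HLA-DMA, its partner, rose from 3.66 to 8.61 CPM at 24 h and from 3.59 to 12.7 CPM at 72 h, by a log2 value of 1.53 ± 0.22 (adjusted p = 9.94e-05). With the 72 h pair left out HLA-DMA missed the threshold (1.22, adjusted p = 0.0516), and over 8 alternatives its adjusted p ran from 1.86e-16 to 0.0516.

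HLA-DRA was 5.28 and 8.58 CPM in vehicle and LSD1i at 24 h and 3.42 and 14.7 CPM at 72 h, and rose by 1.38 ± 0.26 (adjusted p = 0.00133, edgeR). The ratio was 1.63 (1.38 to 1.92) at 24 h and 4.31 (3.58 to 5.22) at 72 h. HLA-DRA missed the threshold when the 72 h pair was left out (0.69, adjusted p = 0.379) and in DESeq2 (0.142), in a range of 9.19e-18 to 0.379 over 8 alternatives. HLA-DRB1 rose by 0.94 ± 0.12 (4.12e-05), from 54.7 to 101 CPM at 24 h and from 58.3 to 115 CPM at 72 h. Its ratios of 1.85 (1.76 to 1.94) and 1.98 (1.88 to 2.08) were close to each other at both times. CD74 rose by 0.74 ± 0.15 (0.00234), from 58.4 to 82.7 CPM and from 70.0 to 137 CPM, and missed the threshold when the 72 h pair was left out (0.49, adjusted p = 0.425) and without the pairing (0.139). Over 8 alternatives the adjusted p of CD74 ran from 1.69e-07 to 0.425.

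The other THP-1 genes did not pass the test. CIITA was 0.336 and 0.738 CPM at 24 h (16 and 33 reads) and 0.831 and 1.21 CPM at 72 h (35 and 43 reads), 0.78 ± 0.30 (adjusted p = 0.131). The counting interval of its ratio lay above equality at 24 h and included equality at 72 h. RFX5 was 126 and 126 CPM at 24 h and 144 and 155 CPM at 72 h, 0.05 ± 0.13. HLA-DPA1 was 0.49 ± 0.24 (adjusted p = 0.277), HLA-DPB1 0.47 ± 0.41 and HLA-DQA1 0.15 ± 0.63, on 4 to 62 reads per library. The counting interval of the HLA-DPB1 ratio ran from 0.416 to 1.35 at 24 h, which includes equality, and from 1.62 to 9.53 at 72 h, above equality. The median of the 10 was 0.76, beside -0.00906 over all genes tested.

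In KASUMI-1 HLA-DMB alone of the 10 rose, by 1.45 ± 0.42 (adjusted p = 0.0343, edgeR's quasi-likelihood test), where 7.02% of all genes tested rose and 5.09% fell (12.1% either way). Its levels were 0.367 and 0.738 CPM in vehicle and LSD1i at 6 h and 0.534 and 1.92 CPM at 72 h, or 14, 29, 12 and 79 reads. With the 72 h pair left out the value was 0.995 (adjusted p = 0.422), and over 7 alternatives the adjusted p of HLA-DMB ran from 0.00127 to 0.422. HLA-DQA1 was 0.184 and 0.331 CPM at 6 h and 0.0890 and 0.755 CPM at 72 h, on 2 to 31 reads (1.74 ± 0.60, adjusted p = 0.0685), and RFX5 was 0.26 ± 0.13 (adjusted p = 0.200). The remaining 7 lay between -0.01 (HLA-DRB1) and 0.26 (HLA-DMA). The median of the 10 was 0.23, beside 0.0213 over all genes.

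The KASUMI-1 pairs differed by time. At 6 h HLA-DRA was 173 in vehicle and 148 CPM in LSD1i, a ratio of 0.856 (0.826 to 0.887), below equality beyond counting error. Of the 10 genes 2 had a counting interval above equality (HLA-DMB and RFX5) and 2 below it (HLA-DRA and CD74), where 21.8% of all genes were above and 25.6% below. CD74's ratio of 0.971 (0.945 to 0.998) turned to higher on raw library totals (log2 0.07). At 72 h HLA-DRA was 148 and 242 CPM, a ratio of 1.64 (1.57 to 1.70), and 9 of the 10 had an interval above equality, where 29.9% of all genes did. Left out was HLA-DRB1, 28.0 and 29.2 CPM. CIITA was 10.1 and 13.3 CPM at 72 h (1.33, 1.13 to 1.56) and RFX5 112 and 151 CPM (1.35, 1.29 to 1.41). Fitted without the 6 h pair, 4 of the 10 rose in KASUMI-1, where 9.9% of all genes rose in that fit: HLA-DMB, HLA-DMA (0.73, adjusted p = 0.0214), HLA-DRA (0.71, 0.00127) and HLA-DQA1 (3.04, 0.00971). In THP-1 the interval was above equality in 6 genes at 24 h and 7 at 72 h (backgrounds 26.2% and 26.7%). A ratio of at least 2-fold at a mean of at least 2 CPM was reached by HLA-DMA at 24 h and by HLA-DMA and HLA-DRA at 72 h (backgrounds 1.94% and 2.30%), and by none of the 10 in KASUMI-1 (0.535% and 2.32%). HLA-DMB, with a mean of 1.99 CPM at 24 h, missed that level and passed it on raw library totals or RLE scaling.

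**Figure D4:**
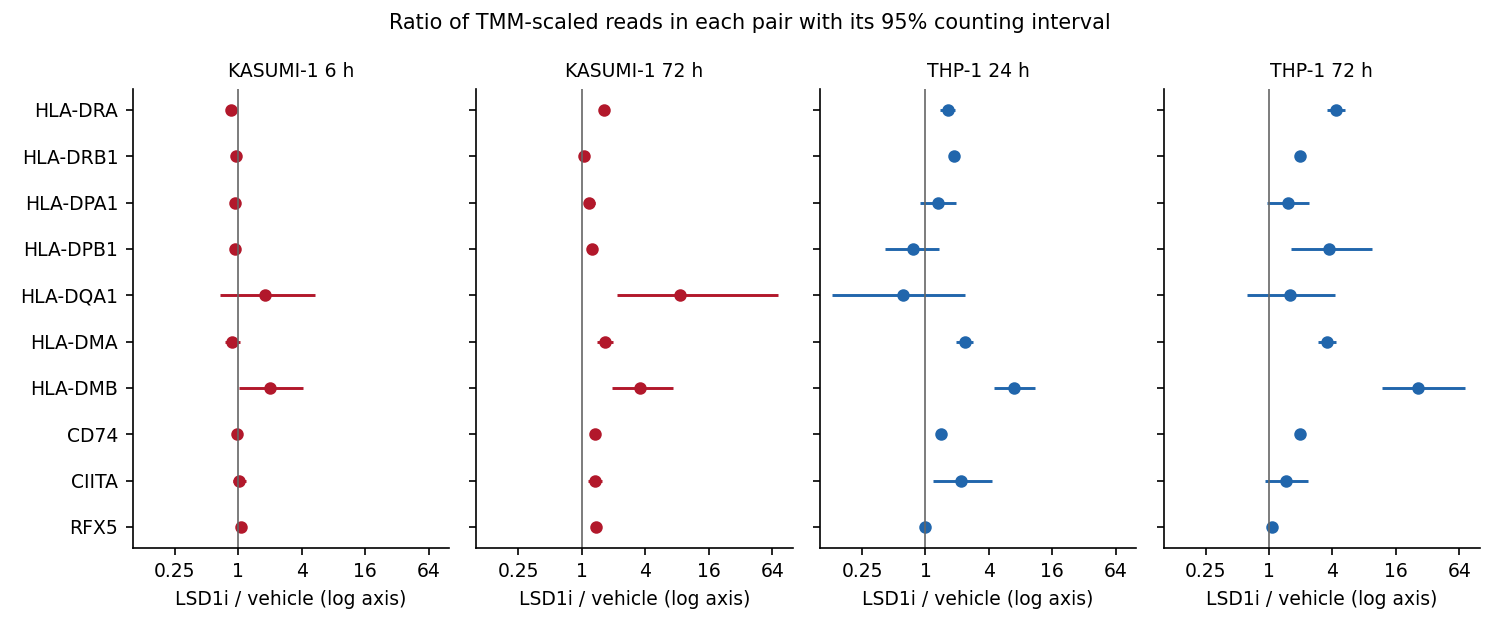
LSD1i over vehicle ratio of TMM-scaled reads (horizontal axis, log) for each gene in the 4 pairs, with the exact 95% counting interval as a bar. HLA-DMB, HLA-DMA, HLA-DRA, HLA-DRB1 and CD74 lie right of equality in both THP-1 pairs, and at KASUMI-1 6 h the only intervals clear above equality are those of HLA-DMB and RFX5.

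The difference of response between the lines was tested directly. It passed for HLA-DRB1 (THP-1 minus KASUMI-1, 0.95 ± 0.18, adjusted p = 0.00480) and HLA-DMA (1.27 ± 0.30, adjusted p = 0.0213), both larger in THP-1, 2 of 10 where 3.07% of all genes were larger in THP-1, 2.62% smaller and 5.69% different in either direction. The adjusted p over 8 alternatives ran from 0.000328 to 0.304 for HLA-DRB1 and from 1.67e-06 to 0.286 for HLA-DMA. It did not pass for HLA-DRA (1.14 ± 0.34, 0.0547), HLA-DMB (2.01 ± 0.60, 0.0582) or CD74 (0.55 ± 0.21, 0.125), nor for CIITA, RFX5, HLA-DPA1, HLA-DPB1 and HLA-DQA1 (0.322 to 0.720). With the THP-1 72 h pair left out it passed for 0 of the 10 in edgeR's test (2 at an unadjusted p under 0.05), with the THP-1 24 h pair left out for 1, and with the KASUMI-1 72 h pair left out for 5. The shares of all genes that passed in these fits were 1.01%, 1.09% and 4.22%. The 1 gene that passed without the THP-1 24 h pair was HLA-DRA (log2 1.86), and neither HLA-DRB1 (0.99) nor HLA-DMA (1.55) passed there. Without the KASUMI-1 6 h pair HLA-DMA (0.80) did not pass, while HLA-DRB1 (0.87) and HLA-DRA (0.66) did. DESeq2 on all pairs passed 2 of the 10, HLA-DRB1 and HLA-DMA, and 5.4% of all genes. Each fit that left out a pair kept 1 pair in that line, which is assumed to vary like the other line. The times differ between the lines at the first sampling (6 and 24 h).

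The other genes of the pathway came from fixed lists. Among all genes tested, 6.51% rose and 2.85% fell in THP-1, and 7.02% rose and 5.09% fell in KASUMI-1. Of 4 tested other class II chains, HLA-DRB5 rose in THP-1 (1.35 ± 0.16, adjusted p = 1.08e-05) and HLA-DOA, which restrains HLA-DM, rose in KASUMI-1 (1.88 ± 0.40, 0.00598), from 0.394 to 0.763 CPM at 6 h and 0.579 to 3.56 CPM at 72 h. Of 12 promoter factors and coactivators, none passed in THP-1 in edgeR's test, in DESeq2 or at an unadjusted p under 0.05 (0 in each), and in KASUMI-1 1 rose (the coactivator CREBBP, 0.70 ± 0.15, 0.00524) and 1 fell (RFXANK, -0.51 ± 0.13, 0.0175). NFYC, the gamma chain of NF-Y, was 34.8 to 37.0 CPM in KASUMI-1 and 650 to 700 CPM in THP-1. Its row, at chr1:40929965-41009864, overlaps that of AL031289.1-2 by 164 bases, and the cause of the gap between the lines was not tested.

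Of 14 inputs to CIITA, 2 rose in THP-1 and 3 in KASUMI-1, where 6.51% and 7.02% of all genes rose, and none fell. The interferon gamma receptor chain IFNGR1 rose in both, by 1.01 ± 0.13 in THP-1 (2.41e-05) and 0.71 ± 0.13 in KASUMI-1 (0.00232). IFNGR2, the other chain, rose in THP-1 (0.57 ± 0.12, 0.00503). The factors IRF1 (1.05 ± 0.18, 0.00152) and IRF8 (0.64 ± 0.18, 0.0283) rose in KASUMI-1, and were 0.24 ± 0.18 and -0.07 ± 0.14 in THP-1. IRF8 stood at 2.83 to 6.84 CPM in KASUMI-1 and at 541 to 695 CPM in THP-1.

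Of 13 tested genes of antigen processing and peptide loading, 5 rose and 1 fell in THP-1, and 2 rose in KASUMI-1. IFI30, a thiol reductase of the endosome, went from 26.1 to 99.2 CPM at 24 h and from 4.92 to 63.8 CPM at 72 h in THP-1 (2.74 ± 0.27, 1.40e-06). The proteases LGMN (2.07 ± 0.25), CTSH (1.43 ± 0.15) and CTSB (1.39 ± 0.14) rose there too, at adjusted p of 1.40e-05, 2.98e-06 and 1.87e-06, while CD82, a tetraspanin, fell (-0.70 ± 0.18, 0.0180). CTSS, the protease known for cutting the invariant chain, rose in both lines, by 1.01 ± 0.13 in THP-1 and 1.07 ± 0.13 in KASUMI-1. MARCHF1, a ligase that removes class II from the surface, rose in KASUMI-1 (0.93 ± 0.22, 0.0118) and was 0.81 ± 0.25 in THP-1 (0.0538). Of 20 class I genes tested 2 rose in THP-1 (PSMB9 and PSME2) and 1 in KASUMI-1 (ERAP2), beside the same 6.51% and 7.02%. Of 3 tested CD74 partners CXCR4 rose in both lines and CD44 in KASUMI-1.

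**Figure D5:**
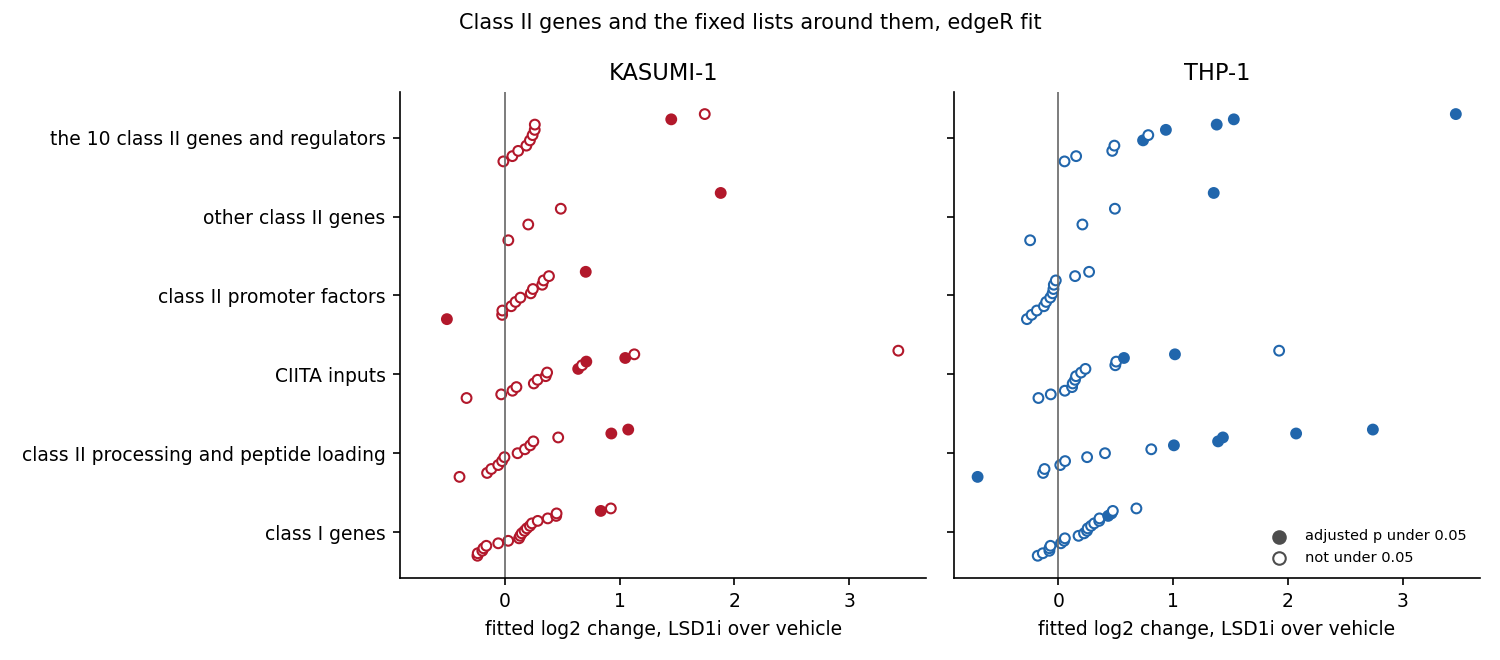
Fitted log2 change with LSD1i (horizontal axis) of the 10 genes and 5 lists of the pathway in KASUMI-1 and THP-1, 1 point per gene. Filled points have an adjusted p under 0.05 in edgeR's quasi-likelihood test. In THP-1 filled points stand in every list but the promoter factors, and in KASUMI-1 the 10 genes hold 1 filled point.

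The genes whose 4 pair ratios lay nearest to those of HLA-DRA, by root mean square distance over 4 pairs among 9491 candidates whose average log2 CPM was 1 or more, were SAMSN1 (0.264), RPS6KA2 (0.285), HLA-DMA (0.299) and SYT11 (0.318). For HLA-DMB they were ADAM28 (0.598), GCNT2 (0.608), NLRC4 (0.613) and OSBPL11 (0.615). CD74 had RPS6KC1 (0.0628), FGL2 (0.0977), TMSB4X (0.110) and MOCS2 (0.115). The 4 values share libraries in pairs, so this likeness is a description.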

How the data were processed

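RNA of 8 libraries was sequenced, and the authors deposited raw read counts by gene name for all of them in 1 table. Per the file headers, featureCounts 1.5.2 counted reads over exons by gene name, with models of Ensembl 54 on NCBI36, without strand or multi-mapping options, so reads of close copies such as HLA-DRB1 and HLA-DRB5 may be missing. TopHat2 2.0.10, FastQC 0.10.0, Subread, edgeR and hg18 are named in the submitters' processing notes. The column of lengths (a unit in bases, deposited by the authors) sums exons over haplotypes, so levels per length used reference exons instead, a change from the planned deposited length; with the deposited length CD74 and RFX5 ranked ahead of HLA-DRB1 in all 4 THP-1 libraries.

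Groups came from the labels, and line and time paired the libraries. The test was edgeR 4.0.16 (R 4.3.3) quasi-likelihood with TMM, filterByExpr at a minimum count of 10 (16060 genes), a term per pair and an LSD1i term per line, adjusted by Benjamini and Hochberg at 0.05. Vehicle lines were compared in a separate fit. Pair log2 ratios used a prior count of 2, with exact conditional binomial 95% intervals that cover counting error only. Standard errors are the fold divided by the root of F. Alternatives were RLE scaling, no filter, DESeq2 1.42.0, no replicate block, leaving out pairs, other prior counts and raw totals. The script was tested on simulated data. The 10 genes and all lists were chosen with earlier results of these data known. Genes named are the 10, those of other lists that passed in either line with a few of the highest level, and the 4 nearest in pair ratios. Some genes within this rule are not reported here. Of 112 list genes 108 matched a row.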

Additional observations from a re-analysis of the deposited data

Results flagged for a closer look

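The response differed between the lines (THP-1 minus KASUMI-1, log2) for 11 genes of the 10 and the lists. Over all 16060 genes tested it differed for 914, or 5.69%. Among the class II genes these were HLA-DRB1 at 0.95 and HLA-DMA at 1.27, with HLA-DRB5 at 1.32. In the processing list, with 13 tested, they were CTSH at 1.49, IFI30 at 2.63, LGMN at 2.09 and CTSB at 1.14. Among 20 class I genes tested it was PSME2 at 0.67. The cell markers KIT (-1.91), ITGAM (1.38) and CD79B (1.27) differed as well. All rest on 2 pairs per line, whose first times differ.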

How the results depend on the processing

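The pairing of the libraries by line and time is part of the fit. Without that block (no replicate block) 0 of the 10 genes were called in KASUMI-1 and 0 for the difference, and over all genes 100 were called in KASUMI-1, 454 in THP-1 and 22 for the difference, against 1945, 1503 and 914 with it. In KASUMI-1 DESeq2 called 0 of the 10 and 1610 of all 16060 genes, and gave HLA-DMB no adjusted p (1.41, unadjusted p = 0.0272). In THP-1 it called 4 of the 10 and 994 of all genes. Without the filter on low counts the difference passed for 4 of the 10 and for 1243 of all 23658 genes. Leaving out 1 pair at a time, the lone pair of a line is assumed to vary like the other line. The 10 then gave 0 to 4 calls in KASUMI-1, 2 to 5 in THP-1 and 0 to 5 for the difference, and all genes 306 to 2741, 386 to 2211 and 166 to 1705. At THP-1 24 h raw totals and RLE scaling gave 2 genes at 2-fold. The lowest adjusted p of HLA-DMA, HLA-DRA and CD74 in THP-1 came from edgeR fits without a KASUMI-1 pair. These fits had 1 residual degree of freedom and took each gene's spread from the trend over all genes. The THP-1 values were near unchanged there (HLA-DMA 1.53), so the low p reflect the estimated spread and not a larger change.

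Signs turned for HLA-DRB1 in KASUMI-1 without the filter (0.0027) and without the block (0.0042). Over the fits that left out a pair, KASUMI-1 values ran from -0.087 to 0.062 for HLA-DRB1, -0.19 to 0.73 for HLA-DMA, -0.23 to 0.71 for HLA-DRA, -0.11 to 0.25 for HLA-DPA1, -0.092 to 0.33 for HLA-DPB1 and -0.046 to 0.42 for CD74, each negative without 72 h. In THP-1 they ran from -0.42 to 1.85 for HLA-DPB1, -0.71 to 0.63 for HLA-DQA1 and -0.015 to 0.084 for RFX5, the difference of HLA-DPB1 from -0.52 to 1.75, and the vehicle value of HLA-DMB from -1.58 to 0.23. On raw totals the KASUMI-1 6 h CD74 ratio (0.068) and the THP-1 72 h RFX5 ratio (-0.023) turned. The cause was not tested. For single genes 91 values lost and 15 gained a call over all alternatives. Genes of the other lists entered this count only where the main fit called them, so they could lose a call but not gain one. The 2 counts are therefore not to be weighed against each other. RFX5's vehicle difference passed under RLE scaling (adjusted p = 0.0463), no filter (0.0109) and DESeq2 (0.0394), in a range of 0.00352 to 0.302.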
